A study of Drosophila melanogaster with 2 samples.

Results

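Binding of the nuclear receptor Hr51 was described at the summits that lie more than 300 and up to 1000 bp upstream of the nearest protein-coding transcription start site. Summits in the 300 bp nearer the start site, called core summits below, were left out of this window. A summit is the position of highest signal within a called peak. Of the 7229 summits in the deposited list of reproducible peaks, 786 lay in this window. From these, 15 were dropped because they sat between divergent start sites, a minus-strand one on the left and a plus-strand one on the right, at most 1000 bp apart. The remaining 771 summits (10.7%, 95% Wilson interval 9.98 to 11.4%), called members below, are described here. They fell in 758 distinct intervals and were assigned to 681 genes, of which 604 had 1 such summit, 67 had 2, 7 had 3 and 3 had 4. For 12 summits a pair of genes tied as nearest.

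The peaks come from ChIP-seq, sequencing of chromatin precipitated with an antibody, on whole Drosophila melanogaster embryos aged 14 to 16 h, with males and females pooled. The flies were a transgenic line, Dhr51-GFP, in which an insertion expresses Hr51 fused at its C terminus to green fluorescent protein (eGFP), and precipitation used an antibody against GFP; the labels do not say which promoter drives the fusion or whether untagged Hr51 remains. There were 2 samples in 1 group, labelled biological replicates 1 and 3, from 1 line and with chromatin sonicated to 200 to 800 bp. There was therefore no contrast between conditions and no test over samples; the values below are descriptions, intervals cover counting error over peaks only, and values from each replicate's own list are given beside many of them. Whole embryos mix all cell types, so a peak cannot be assigned to one of them, and few cells with strong binding cannot be told apart from many cells with weak binding.

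Hr51, also called unfulfilled, belongs to the NR2E group of nuclear receptors, transcription factors that bind short DNA hexamers through a pair of zinc fingers. In the fly it is known for its role in mushroom body neurons, where axons are pruned and regrown during metamorphosis, and in the clock neurons of the adult. The DNA just upstream of a core promoter often holds regulatory sequences, among them GAGA repeats bound by GAGA factor, a protein that keeps promoters open, and tracts of A and T, which bend or stiffen DNA.

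The summits of highest signal lay in DNA rich in A and T, and 6 of the strongest are printed so that this composition can be seen. Each line holds the summit base with 50 bases on either side (dm6, the Release 6 sequence), read 5′ to 3′ on the strand of the gene, with runs of 6 or more A or T in capitals.
Lk6 (chr3R:11761007-11761107, minus strand): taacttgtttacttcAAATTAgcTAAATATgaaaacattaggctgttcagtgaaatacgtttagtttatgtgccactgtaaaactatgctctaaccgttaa
ph-p (chrX:2137272-2137372, minus strand): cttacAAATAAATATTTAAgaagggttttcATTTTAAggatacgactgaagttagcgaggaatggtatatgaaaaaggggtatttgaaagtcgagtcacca
cu (chr3R:11197232-11197332, plus strand): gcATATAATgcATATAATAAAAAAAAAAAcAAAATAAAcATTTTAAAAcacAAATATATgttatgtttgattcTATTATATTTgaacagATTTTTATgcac
chif (chr2L:16351204-16351304, minus strand): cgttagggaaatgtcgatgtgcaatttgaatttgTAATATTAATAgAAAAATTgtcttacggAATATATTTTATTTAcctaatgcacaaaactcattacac
CG3961 (chr3L:18890750-18890850, minus strand): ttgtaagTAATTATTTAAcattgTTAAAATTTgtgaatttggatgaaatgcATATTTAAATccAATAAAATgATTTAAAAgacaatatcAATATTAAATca
gce (chrX:15298416-15298516, plus strand): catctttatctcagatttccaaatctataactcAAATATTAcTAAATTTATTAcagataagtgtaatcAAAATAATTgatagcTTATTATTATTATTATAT
The GC content of these windows was 30.7% at Lk6, 33.7% at ph-p, 17.8% at cu, 27.7% at chif, 17.8% at CG3961 and 18.8% at gce. Runs of A and T took up 68 bases of the window at cu and 13 at Lk6, so strong peaks stood both on long tracts and on more mixed sequence.

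Hexamers of nuclear receptors were searched on both strands as AAGTCA, the form bound by the NR2E group, and as AGGTCA, the general form. The strongest members with AAGTCA were at larp, Reph and for, and the strongest with AGGTCA was a summit at Msp300. The matches, in capitals, appear as written or as the reverse complement.
larp (chr3R:28326556-28326656, minus strand): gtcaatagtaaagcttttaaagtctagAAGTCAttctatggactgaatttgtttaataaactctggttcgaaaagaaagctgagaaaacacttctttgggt
Reph (chr2L:3804714-3804814, plus strand): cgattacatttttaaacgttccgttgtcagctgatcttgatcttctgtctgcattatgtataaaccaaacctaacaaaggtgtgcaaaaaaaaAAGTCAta
for (chr2L:3632441-3632541, minus strand): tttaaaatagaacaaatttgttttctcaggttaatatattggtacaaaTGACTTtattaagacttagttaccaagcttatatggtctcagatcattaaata
Msp300 (chr2L:5108091-5108191, plus strand): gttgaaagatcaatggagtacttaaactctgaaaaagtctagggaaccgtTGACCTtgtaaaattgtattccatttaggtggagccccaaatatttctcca
At for and Msp300 the match covered the summit itself, whereas at Reph it lay at the edge of the window toward the gene. A match is a description of the letters and not evidence of a bound site.

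On the side toward the gene, many members had GAGA repeats. The bases from 200 to 350 bp toward the gene are shown for 3 members with many matches to GAGAG on either strand, with the matches in capitals; the Msp300 stretch belongs to the same summit as the Msp300 window above.
Msp300 (chr2L:5108341-5108491, plus strand): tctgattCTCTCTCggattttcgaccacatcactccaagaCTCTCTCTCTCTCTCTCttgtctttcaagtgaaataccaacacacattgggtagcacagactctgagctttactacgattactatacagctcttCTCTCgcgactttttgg
stv (chr3L:13477129-13477279, plus strand): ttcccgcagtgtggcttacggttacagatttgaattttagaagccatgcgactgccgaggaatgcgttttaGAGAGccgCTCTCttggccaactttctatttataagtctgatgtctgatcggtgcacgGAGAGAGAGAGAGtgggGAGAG
CHES-1-like (chrX:7696717-7696867, minus strand): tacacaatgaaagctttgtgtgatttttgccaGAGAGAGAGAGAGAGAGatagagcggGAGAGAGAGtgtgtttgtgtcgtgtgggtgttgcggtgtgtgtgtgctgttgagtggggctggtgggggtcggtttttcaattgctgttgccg
Counting overlapping matches, these stretches held 10 at Msp300, 8 at stv and 10 at CHES-1-like, and their GC content was 43.7%, 49.01% and 50.99%.

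Most of the summits lay in the nearer portion of the window. The median distance was 490 bp upstream (quartiles 381 and 664 bp), against 479 bp in the 7229 highest peaks of replicate 1 and 492 bp in those of replicate 3. Within 500 bp lay 399 summits, and beyond 750 bp lay 137. In steps of 100 bp beyond 300 bp the counts were 231, 168, 128, 75, 57, 56 and 56. The step just nearer the start site held 335 and the step just beyond 1000 bp held 52, so counts declined through the window without a break at its near edge and were level from about 700 bp outward. The replicate lists had the same shape, with 761 summits in replicate 1 and 755 in replicate 3, or 10.5% and 10.4% of as many peaks.

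**Figure D1:**
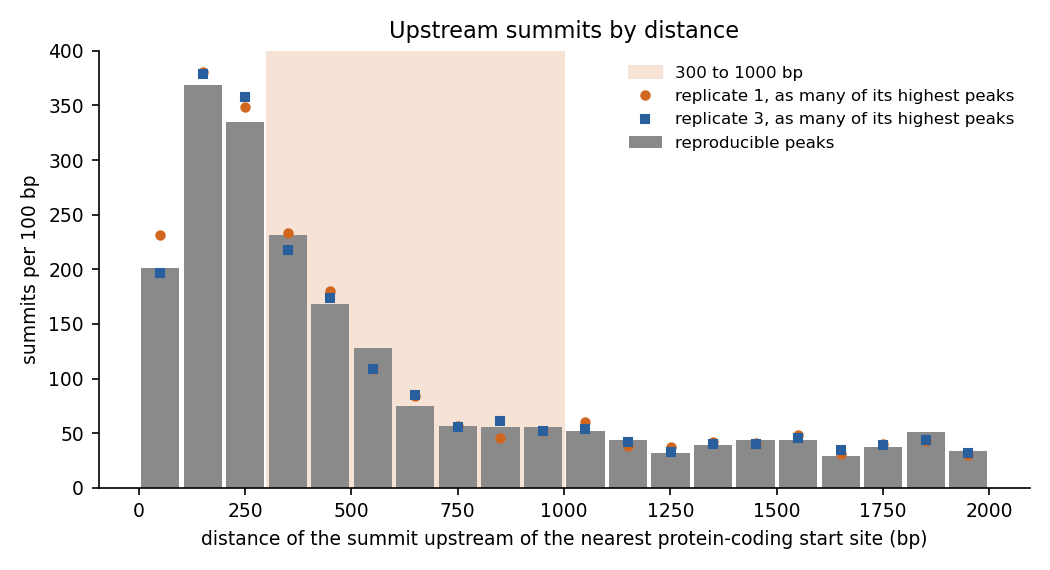
Number of upstream summits (y axis) by distance from the nearest protein-coding start site (x axis, bp) in steps of 100 bp; bars are the reproducible peaks, points the 7229 highest peaks of each replicate, and the shaded band is the window described. Counts go from 231 in the nearest step of the window to 56 in the furthest, with the replicate points close to the bars.

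At the limits, 3 summits tied as closest inside the near edge, at ana, SNF4Agamma and apt, with signals of 540, 251 and 181. Just outside, 300 bp upstream, 5 tied, at loh, CG17105, wuc, comm3 and CG17570, with 546, 303, 272, 192 and 161. Signal is the deposited score by which peaks are ranked within a list, on a scale not given in the sources used here. At the far edge the summit of CG6330 lay inside at 999 bp (signal 924) and those of Cad89D and PKD outside at 1004 bp (576 and 334). The 26 summits in the 10 bp inside the near edge had a median signal of 368 and the 22 in the 10 bp outside it one of 403.

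By chromosome arm, 181 of the 771 summits were on X, 165 on 3R, 162 on 3L, 139 on 2R, 122 on 2L and 2 on 4. X held 7.69 per Mb and the 4 large autosome arms between 5.14 and 5.76. Per 1000 protein-coding genes the values were 82.4 on X and 45.9 to 59.2 on those arms. Among all reproducible summits of an arm, the share in the window was 12.5% on X (10.9 to 14.3%), 11.5% on 2R (9.84 to 13.5%), 10.1% on 3L (8.74 to 11.7%), 9.89% on 3R (8.54 to 11.4%) and 9.38% on 2L (7.92 to 11.1%). The interval of X overlapped those of the other 4 large arms, and the difference was not tested. On chromosome 4 it was 2 of 8.

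The peaks were stronger than those further from start sites and close to those 0 to 300 bp upstream. The median signal was 317 (quartiles 202 and 580, range 135 to 4278). It was 338 for the 905 core summits, 0 to 300 bp upstream of a single promoter, 265 for the 1608 intronic summits 1 to 5 kb from a start site and 245 for the 571 intergenic summits at that distance. The ratio of medians to the core class was 0.935, with 0.978 in replicate 1 and 0.935 in replicate 3. To the intergenic class it was 1.29, with 1.26 and 1.29, and to the intronic class 1.195, with 1.11 and 1.198. No test was made over samples, but in each list the order of the 4 classes was core, then the members, then intronic, then intergenic.

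The core class reached further at the top. Of the 771 summits, 13.1% (10.9 to 15.7%) were among the 722 reproducible peaks of highest signal, which by construction are 9.99% of all. Of core summits 193 (21.3%, 18.8 to 24.1%) were. Within the window the share among those 722 was highest in the step nearest the start site. The median signal was 359 in the nearest 100 bp step, where 43 of 231 (18.6%, 14.1 to 24.1%) were among those 722, and 229 in the furthest step, where 7 of 56 (12.5%, 6.19 to 23.6%) were. The steps between ran from 277 to 342 in median and from 5.36% to 12.0% in share, without a steady order. The intervals of the nearest and furthest steps overlapped, and the difference was not tested.

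**Figure D2:**
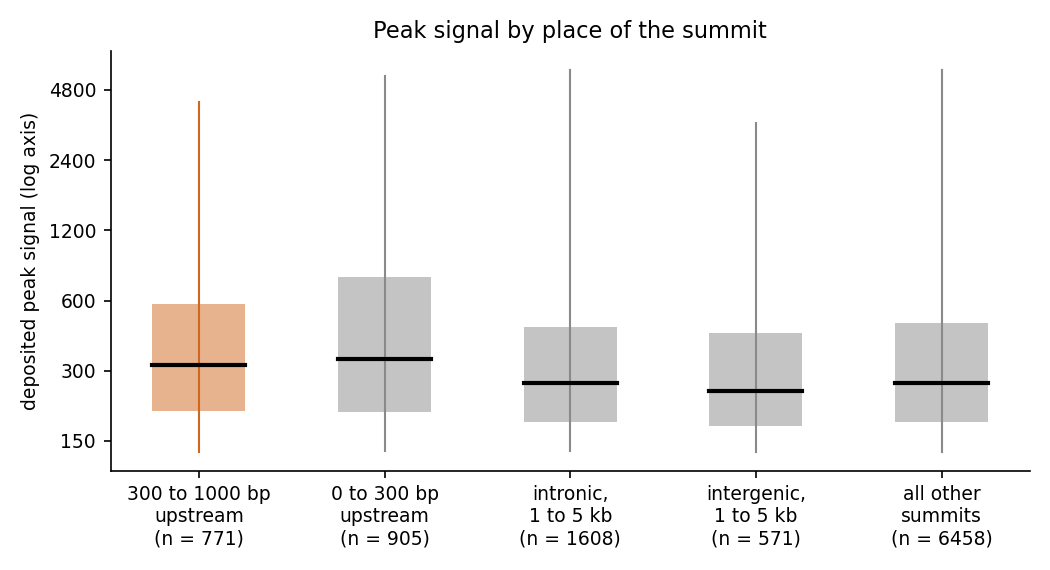
Deposited peak signal (y axis, log scale) for 5 classes of summit (x axis); the black line is the median, the box the quartiles and the thin line the full range. Medians are 317 for the window from 300 to 1000 bp, 338 for core summits, 265 and 245 for intronic and intergenic summits at 1 to 5 kb, and 266 for all other summits.

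Almost all of the summits had a peak in both replicates, as did reproducible peaks in general. Of 771, 749 (97.2%, 95.7 to 98.1%) overlapped a peak of replicate 1 and of replicate 3 by at least 1 bp, against 97.3% of all 7229. No replicate 1 peak overlapped 17 of them and no replicate 3 peak 5. The reproducible list was made from these same samples, so this share is in part built in. With summits required within 100 bp in both replicates, 708 (91.8%, 89.7 to 93.6%) remained, against 93.5% of all. Signal in replicate 1 and in replicate 3 correlated over these 749 with Pearson's r = 0.855 (log2 values) and Spearman's rho = 0.827, a description of peaks from 2 libraries that share their selection.

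**Figure D3:**
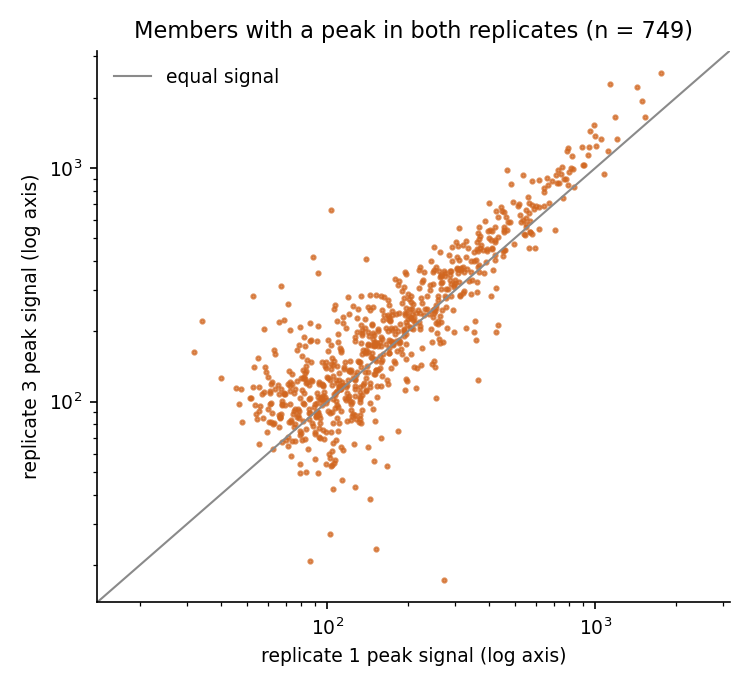
Signal of each member's matching peak in replicate 1 (x axis, log scale) and replicate 3 (y axis, log scale) for the 749 summits with both; the line marks equal values. Points lie along a diagonal band at high signal and spread out below about 200.

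The largest rank differences between replicates were at sm, which encodes an RNA-binding protein, apt, a transcription factor gene, CG13937 and Pits. The sm summit 375 bp upstream ranked 1344 in replicate 1 (signal 272) and 27411 in replicate 3 (17.3). The apt summit ranked 2951 and 20796, and that of CG13937 5949 and 23182. Pits went the other way, at 16216 in replicate 1 and 2397 in replicate 3. All 4 ranked low in 1 of the replicates, and sm has another member, 798 bp upstream, that ranked 1829 and 1239.

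The 20 strongest members had signals from 1934 to 4278, and all 20 were among the 500 highest peaks of each replicate, at ranks 13 to 198 in replicate 1 and 10 to 231 in replicate 3. They were chosen by the signal of pooled reads, so high ranks are in part built in. The strongest lay at HmgZ (FBgn0010228, 2R, 21703074 to 21703735), which encodes a DNA-bending HMG-box protein. Its summit was 603 bp upstream, in an intron, with a signal of 4278 in the reproducible list, 1755 in replicate 1 and 2536 in replicate 3. The summit also lay within the span of another gene, HmgD. Replicate scores come from separate lists, so they are compared below by rank.

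Genes of chromatin and of translation were among those that followed. At Lk6 (3R, 11760823 to 11761405), a kinase gene of the translation initiation factor eIF4E, the summit was 978 bp upstream with a signal of 3617 (ranks 36 and 24 in replicates 1 and 3). The neighbouring genes ph-p and ph-d encode polyhomeotic proteins, subunits of a Polycomb repressive complex, and both were in this group. At ph-p (X, 2137108 to 2137604) the summit was 467 bp upstream in an intron, with a signal of 3424 (ranks 78 and 20). At ph-d (X, 2123870 to 2124440) it was 857 bp upstream in intergenic DNA, with 2246 (ranks 97 and 119). The peak at cu (3R, 11197026 to 11197535), the fly Nocturnin gene, had a signal of 3404 (ranks 29 and 35) and lay 310 bp upstream, in the 3′ UTR of its neighbour CG18577. At chif (2L, 16350985 to 16351718), which encodes the activating subunit of a DNA replication kinase, the signal was 3192 (ranks 24 and 53) at 971 bp. The chif summit also lay within the span of Hyls1. The RNA-binding protein gene larp (3R, 28326354 to 28326837) had 2809 (ranks 69 and 54) at 342 bp.

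The other 13 included genes of several kinds. At gce (X, 15298249 to 15298748), a juvenile hormone receptor gene, the summit was 543 bp upstream with a signal of 2523 (ranks 103 and 73), and 249 bp from the start of the antisense gene asRNA:CR44429. At dnc (X, 3255497 to 3256002), a cAMP phosphodiesterase gene needed for memory, the signal was 2171 (ranks 112 and 121) at 349 bp. At for (2L, 3632290 to 3632809), a cGMP-dependent protein kinase gene, it was 1988 (ranks 197 and 129) at 337 bp. The tensin gene by (3R) had 1993 (ranks 87 and 231) at 350 bp. The summit of cbt (2L), a zinc-finger transcription factor gene, had 2096 (ranks 134 and 125) at 386 bp and lay within an intron of ush. CG3961, CG17834, Reph, CG4496, CG7330, CG5953, mlt and CG43736 completed the 20, with signals from 1934 to 2537. Of the 20, 13 were in introns, 5 in intergenic DNA and 11 inside the gene to which they were assigned.

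Introns and intergenic DNA held most of the members. Of 771, 382 (49.5%, 46.03 to 53.1%) were in introns and 329 (42.7%, 39.2 to 46.2%) in intergenic DNA, against 33.1% and 54.3% of core summits. The shares were 48.8% and 43.1% in the highest peaks of replicate 1 and 49.0% and 43.97% in those of replicate 3. A noncoding start site lay within 300 bp of 24 (3.11%), and 15 were in 3′ UTRs, 14 in noncoding exons, 6 in 5′ UTRs and 1 in coding sequence. Core summits in 5′ UTRs numbered 43 of 905. By gene, 335 (43.4%, 39.99 to 46.97%) were inside the gene to which they were assigned, 76 (9.86%) inside another protein-coding gene and 360 (46.7%) outside any. Of all 7229 summits, 49.7% were inside their own gene, 12.2% inside another and 38.1% outside any. The members were thus less often inside their own gene than the whole list. Median signal was close in these places, at 334, 306 and 312. The share in introns depends on the start sites used: with only the most upstream start site of each gene, 467 summits met the rule and 18.6% of them were in introns, since start sites inside genes are then left out.

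Genes with such a summit were longer than genes in general and more often had more than 1 annotated start site. The 681 genes had a median of 2 start sites and a median length of 9.64 kb, and 36.6% had a single start site. All 13945 protein-coding genes had a median of 1 start site and 2.17 kb, and 73.5% had a single one. A gene with more start sites has more windows in which a summit can fall, and this was not adjusted for. Of the 771 summits, 436 (56.5%, 53.03 to 60.01%) belonged to the outermost start site of their gene. A summit upstream of that site lies outside the gene, so this count is the complement of the 335 inside their gene and not a separate result.

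Of the 24 near noncoding start sites, 13 were at lncRNA genes and 7 at antisense RNA genes. The strongest after gce was near lncRNA:CR45325, assigned to CG18128 (signal 1087), and another was near lncRNA:CR45668, assigned to the actin gene Act5C (838). These peaks can be assigned to either start site.

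A few genes had 3 or more such summits, which mostly belonged to different start sites within the gene. CAP, a gene for a cytoskeletal adaptor of muscle attachment, had 4 on 2R, at 416, 567, 954 and 346 bp upstream of 4 start sites, with signals of 625, 213, 139 and 1461. SNF4Agamma, which encodes the gamma subunit of the energy sensor AMPK, had 4 on 3R, with 221, 277, 251 and 881. The zinc-finger gene l(3)neo38 had 4 on 3R, with 150, 622, 217 and 309. In each of these 3 genes 1 summit stood above the others. The dnc gene had summits at 349, 391 and 344 bp of 3 start sites, with 2171, 266 and 732. At stv, a co-chaperone gene of muscle, 2 of the 3 summits shared an interval and a start site, at 612 and 399 bp with 1274 and 936. NFAT and shep, genes of a transcription factor and an RNA-binding protein, also had 2 summits in 1 interval. PGRP-LB, chas and tmod, the last a gene for an actin-capping protein, had 3 each at separate start sites. Of the 33 summits at these genes, 28 (84.85%) were in introns, against 49.55% of all members. A summit just upstream of a start site within its gene lies inside that gene, so this share is in part built in.

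A second summit at the same start site was uncommon. Of 771, 71 (9.21%, 7.37 to 11.5%) had a core summit 0 to 300 bp upstream of the same start site and 83 (10.8%, 8.77 to 13.1%) a summit within 1000 bp downstream, while 626 (81.2%, 78.3 to 83.8%) had neither. The core share was 14.98% in the highest peaks of replicate 1 and 9.54% in those of replicate 3, so it moved by over 1.5 times with the list. The spacing of the 71 pairs ran from 199 to 896 bp, with a lower quartile of 204 bp and a median of 235 bp. No 2 reproducible summits of the whole list were closer than 199 bp, so the shortest of these spacings stand at the limit of the list. The more distant summit was the stronger one in 29 of the 71 pairs (40.8%, 30.2 to 52.5%). Over the 71 the median signal was 340 for the outer summit and 496 for the core one. Picked by the signal of the outer summit, chif had 3192 there and 674 at the core one, CG17834 2409 and 1522, and Reph 2374 and 234. At Ptpmeg2, the outer summit had 885 and the core one 2505. To the next summit of any kind the median distance was 2277 bp, and 107 summits (13.9%) had one within 500 bp. These shares were not counted for other summits, so whether the members differ from the rest of the list is not known.

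Base composition had a sharp minimum at the summit. The window of 50 bp to either side of the summit had a median GC content of 29.7% (quartiles 24.8 and 34.7%), with 29.7% in each replicate's list too, against 42.6% in windows centred 300 bp away on the far side and 45.5% on the gene side. In 578 of 771 (74.97%, 71.8 to 77.9%) the summit was lower than both sides. All other reproducible summits had the same median of 29.7%, and 74.99% of them were lower than both sides, so the minimum was as deep in the rest of the list. Runs of at least 10 A or T occurred at 60.7% of the summits (57.2 to 64.1%), at 26.1% of the far windows and at 23.1% of the gene-side windows, against 61.4% at other summits. The 20 6-mers with the largest excess at the summit consisted of A and T alone, led by TTAAAA with 38.8% at the summit and 13.8% in the flanking windows (36.3% and 12.96% for other summits).

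GAGA matches lay beside the summit and mostly toward the gene. GAGAG, on either strand, occurred in 78 of the 771 summit windows (10.1%, 8.18 to 12.4%), near the 8.3% of all reproducible summits. In windows of the same length 300 bp away it occurred in 126 (16.3%, 13.9 to 19.1%) on the far side and in 223 (28.9%, 25.8 to 32.2%) on the gene side. Core summits had 16.9% and 18.3% on those sides, intronic summits at 1 to 5 kb 17.4% and 17.2%, and intergenic ones 15.9% and 12.96%. The gene-side windows of the members mostly fall in or near the 300 bp upstream of the start site. Those of the other classes fall elsewhere, so position and class cannot be told apart in these windows. Core summits had a gene-side rise nearer in, with 29.6 and 28.0 matches per 100 summits in the 50 bp bins from 100 to 200 bp. Their far side reached 24.2. The members had 35.0 and 35.8 in the bins from 200 to 300 bp, and their far side reached 20.9. The Msp300, stv and CHES-1-like stretches printed above are examples of members with gene-side matches.

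**Figure D4:**
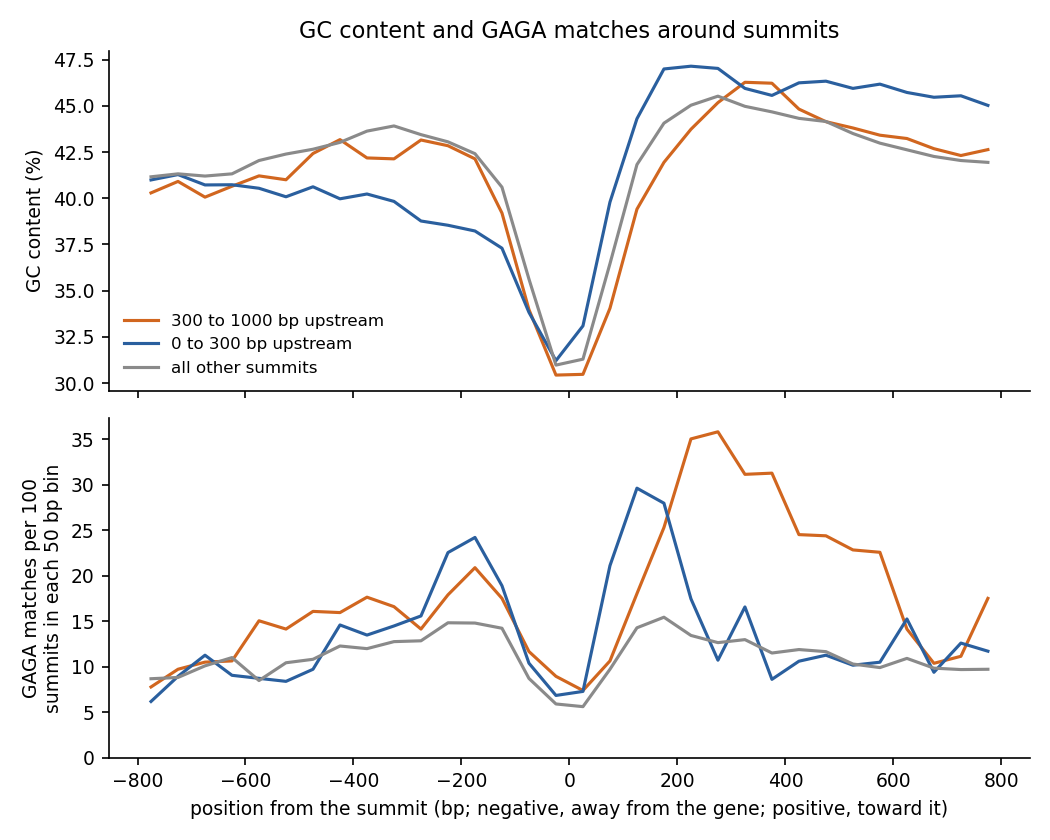
GC content (upper panel, %) and GAGA matches per 100 summits in each 50 bp bin (lower panel) by position from the summit (x axis, bp, with the gene to the right), for the 771 summits, the 905 core summits and all other summits. GC content has its minimum at the summit in every class, and matches in the 771 are most frequent 200 to 400 bp toward the gene. Matches at core summits are most frequent 100 to 200 bp toward the gene.

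Counted from the start site, the matches were most frequent in the 300 bp upstream of it. They numbered 86.5 per 100 start sites with a member in the last 100 bp upstream and 25.9 in the 100 bp from the start site onward. The 771 summits belonged to 740 start sites, of which 443 (59.9%, 56.3 to 63.3%) had GAGAG within 300 bp upstream, against 32.6% of all 19253 start sites. The share was 43.7% (40.4 to 47.1%) at start sites with a core summit instead, 45.1% (42.1 to 48.2%) at those nearest to an intronic summit 1 to 5 kb away, 34.9% (30.4 to 39.7%) at those nearest to an intergenic one and 29.9% (29.2 to 30.7%) at those nearest to no summit. Start sites whose summit lay within 500 bp had 64.7% (59.8 to 69.2%) and those whose summit lay beyond had 53.97% (48.8 to 59.02%). With a summit inside the gene the share was 66.3% (60.9 to 71.2%), and outside it 54.9% (50.1 to 59.6%). The summits themselves lie outside these 300 bp. The share was 58.8% in replicate 1 and 60.2% in replicate 3. It was 53.7% with 1 start site per gene. Gene length and the number of start sites differ between these sets, and their part in the difference was not tested.

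**Figure D5:**
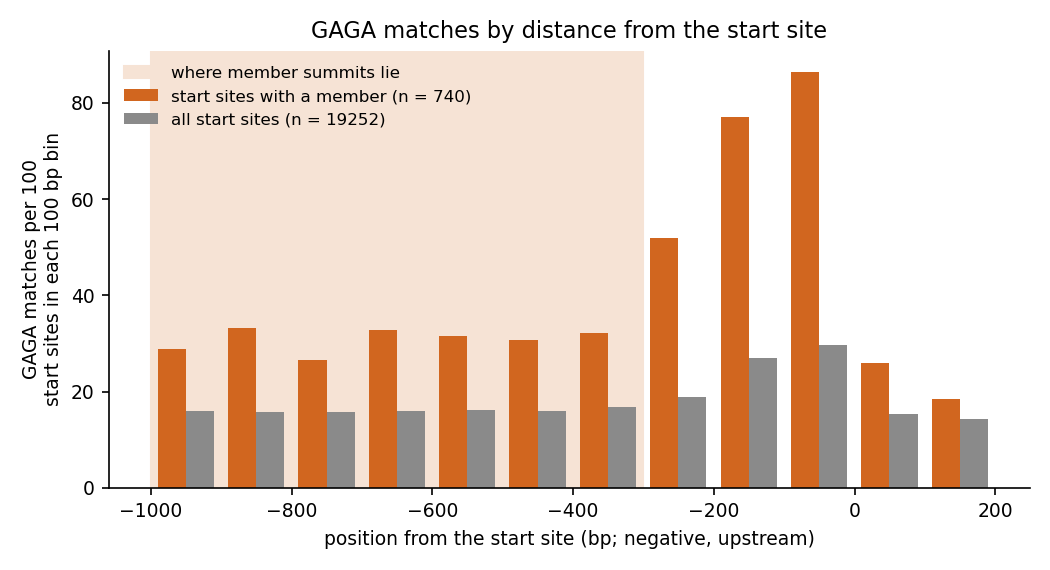
GAGA matches per 100 start sites in each 100 bp bin (y axis) by position from the start site (x axis, bp, negative upstream) for the 740 start sites with a member and for all start sites (1 close to a chromosome end is left out of the latter, leaving 19252); the shaded band is where the summits lie. Upstream, values are 86.5 and 77.0 in the 100 bp bins nearest the start site, 51.9 in the next, and 26.6 to 33.2 beyond. Those for all start sites are 29.6, 27.1, 18.9 and 15.7 to 16.7.

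Matches to the receptor hexamers were few. AAGTCA occurred at 54 of the 771 summits (7.004%, 5.41 to 9.03%), against 4.604% of the flanking windows, 3.43% (2.42 to 4.82%) of core summits, 6.13% and 6.47% of intergenic and intronic summits at 1 to 5 kb and 5.92% of all reproducible summits. AGGTCA occurred at 19 (2.46%, 1.58 to 3.82%), against 1.56% of the flanks and 2.14% of all. The members with AAGTCA had a median signal of 260 and those without it 319. Both shares are near the background of the list, and no match says only that these letters are not in the window.

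Of the other motifs, some were more frequent than in the flanks, some less and some close to them, and not all are named here. CCGGAA, the Ets form, occurred at 1.69% against 1.62% of the flanks, and TGANTCA, the AP-1 form, at 2.1% against 2.2%. TATAAA occurred at 185 (24.0%, 21.1 to 27.1%), against 10.9% of the flanks and 26.7% of all summits. CACACA occurred at 33 (4.28%), against 12.1% of the flanks and 5.56% of all, and GGGTG, a core of KLF sites, at 46 (5.97%), against 13.4% and 5.8%. TATCGATA, the element bound by DREF at housekeeping promoters, occurred at 1 of 771 (0.130%, 0.0229 to 0.731%), at 22 of 905 core summits (2.43%, 1.61 to 3.65%) and at 0.678% of all. In the 300 bp upstream of the start sites it occurred at 12 of 740 (1.62%, 0.930 to 2.81%) that had one of these summits, at 52 of 826 (6.30%, 4.83 to 8.16%) that had a core summit and at 7.56% of all start sites. TATAAA in that stretch occurred at 32.3% (29.0 to 35.8%), 47.7% (44.3 to 51.1%) and 44.6%. Core summits lie inside that stretch and the members outside it, so these shares do not compare like with like.

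Of all 13945 protein-coding genes, 681 (4.88%) had a summit in the window, and in the 14 lists of developmental, neural and metabolic genes the share ran from 8.57% to 26.3%. The 382 genes of these lists had a median of 2 start sites and 10.6 kb, against 1 and 2.17 kb for all genes, and the part of this in the counts was not tested, so no list is called enriched. The lists were chosen with earlier results of these data known. In all, 59 listed genes had such a summit, and at 39 of them the strongest was in an intron. The intron was not always one of the listed gene: the brk summit lay within CG1677 and the Adh summit within osp.

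Nuclear receptor genes had one in 5 of 21 cases. At Hr51 itself the stronger of 2 summits was 570 bp upstream, in an exon of a noncoding gene, with a signal of 1227 (ranks 248 and 642 in replicates 1 and 3), and the other at 369 bp had 588. The windows at these summits had a GC content of 61.4% and 51.5%, against a median of 29.7% over the members. The line carries an Hr51 transgene, and whether its DNA adds reads here was not tested. Nor was this tested for the nearby unc-5 summit on 2R, at 15339670 against 15330755 and 15330956 for Hr51. At ftz-f1 the signal was 474, at Hr38, an NR4A receptor gene, 340, and at Hnf4, a receptor gene of fat and sugar metabolism, 240. The Hnf4 summit shared its interval with another of signal 1164, so its replicate ranks, 397 and 526, are those of peaks that span both. Clock genes had 3 of 21, with the clock activator gene Pdp1 at 1419 (ranks 289 and 330), the phosphatase subunit gene tws at 340 and the potassium channel gene slo at 193. Mushroom body and neuron remodelling genes had 5 of 23, led by dnc (2171), Hr51, the BTB transcription factor gene lola at 1091 (ranks 357 and 690) and ftz-f1.

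Signalling genes had 12 of 47, with brk, a repressor of Dpp target genes, at 1510 (ranks 212 and 368), Mad, which carries the Dpp signal to the nucleus, at 916 (650 and 778), aop, a repressor antagonised by EGF receptor signalling, at 796 (1032 and 828) and htl, an FGF receptor gene, at 561 (1322 and 1750). Axon guidance genes had 5 of 41, with lola, the netrin receptor gene unc-5 at 878 (802 and 714), the semaphorin gene Sema1a at 319 and the teneurin gene Ten-m, which ranked 2874 and 4089. Of pan-neural and synaptic genes 7 of 34 had one, including the sodium pump gene Atpalpha at 1041 (401 and 706), scrt at 484, cpx at 379 and Syx1A at 317. Neuroblast and proneural genes had 4 of 31, namely brat, a translational repressor of self-renewal, at 1800 (173 and 210), scrt, grh at 427 and numb at 164. Neuron identity factors had 3 of 35, namely lola, Lim1 at 235 and hth at 188.

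Glial genes had 5 of 21, including htl, pnt at 333, nrv2 at 192 and the list entry mdy at 286, which encodes an acyltransferase of lipid storage and had no overlapping peak in replicate 3. Muscle and heart genes had 3 of 33, namely the nesprin gene Msp300 at 1930 (129 and 191), Act87E at 604 and rols, a myoblast fusion gene, at 500.3. Gut and fat body genes had 5 of 19, led by Adh at 619, bowl at 307, Hnf4 and the endoderm GATA factor gene GATAe at 239. Trachea, epidermis and cuticle genes had 4 of 24, led by trh, the tracheal master regulator gene, at 1143 (434 and 507), with grh, Ddc at 270 and mmy at 222. Insulator and chromatin genes had 3 of 34, namely ph-p, ph-d and psq at 228. Glycolysis and mitochondria genes had 6 of 24, led by Pgk at 720 (817 and 1283), Tpi at 379, PyK at 368 and the ADP/ATP translocase gene sesB at 258; the Tpi summit had no overlapping peak in replicate 3.

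Ribosomal protein genes had none. Of 86 cytoplasmic ribosomal protein genes, 0 had a summit in the window (upper limit of the interval 4.28%), against 4.88% of all protein-coding genes. Within 1 kb, 56 of the 86 were nearest to some summit, against 2454 of all 13945 genes. Some of the 86 were nearest to several summits: 32 were nearest to a summit between divergent start sites, 13 to a core summit and 12 to one downstream. Of 73 mitochondrial ribosomal protein genes 0 had a summit in the window as well. The upper limit was 4.999%, so that interval includes the 4.88% of all genes. Of these 73, 11 were nearest to some summit within 1 kb, and 10 were nearest to a summit between divergent start sites. Their median lengths were 1.34 and 0.909 kb, and the part of gene length in the count was not tested.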

How the data were processed

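The deposited files were peak lists on dm6, per the labels: 30000 peaks for each replicate, 30000 from pooled reads and 7229 kept as reproducible by an irreproducible discovery rate procedure. Which aligner and peak caller were used is not given in the sources used here, read depth is unknown, and a listed possible control was not used here. Each peak carries a score deposited by the authors, called signal, used to rank and describe peaks within a list, and another deposited column gives the summit's offset from the peak start.

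Start sites of protein-coding transcripts on 6 chromosome arms came from the Ensembl 115 annotation (FlyBase 6.54), and DNA from the Release 6 genome of NCBI RefSeq. Members were found by summit position as described at the start. Each was matched to the overlapping replicate peak with the nearest summit. Motifs were searched on both strands in 101 bp at the summit and in windows 300 bp to either side. Intervals are 95% Wilson intervals. Work was done in Python 3.11.15 with pandas 2.3.3 and numpy 2.4.6, and the classing and motif search were tested on simulated summits and sequences.

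Genes were named by rule: the 20 members of highest signal, up to 4 genes per list, genes with 3 or more members, the members nearest each limit and up to 4 with the largest rank difference. Other genes named, those near noncoding start sites, with paired summits or beside printed sequences, were picked by signal or motif matches after values were seen. The members and lists were chosen with earlier results of these data known. Of 421 list entries, 7 had no single match and were left out. With 1 group of 2 samples no test over samples was possible. Replicates 1 and 3 are separate biosamples per the labels. Alternatives were the stronger 3614 peaks, each replicate's own highest 7229 peaks, 1 start site per gene, other rules for divergent pairs, 1 summit per interval and other windows.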

Additional observations from a re-analysis of the deposited data

How the results depend on the processing

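No paired analysis was possible because there is 1 group of 2 samples. Each alternative was planned. With 1 start site per gene (the most upstream), 467 summits at 447 genes met the rule (6.46%), 18.6% of them were in introns and 70.4% in intergenic DNA, the signal ratio to intergenic summits at 1 to 5 kb was 1.26, and 53.7% of start sites had GAGAG. In the stronger 3614 peaks, 444 summits at 410 genes remained by construction (12.3% of those peaks), with 49.1% in introns, signal ratios of 0.817 to core, 1.10 to intergenic and 1.05 to intronic summits, a GC content of 28.7%, or -16.8 points from the flanks, 62.4% of start sites with GAGAG, and 98.4% of summits in both replicates. Without the drop of divergent pairs the share was 10.9%, with 49.1% in introns and a ratio to core of 0.885. With divergent pairs up to 2000 bp dropped it was 9.72%, with 51.5% in introns and 41.1% in intergenic DNA. With 1 summit per interval it was 10.5%, with 49.8% in introns and 28.7% GC, or -15.8 points. A window of 100 bp to either side gave 31.3% GC and -12.9 points. A core limit of 200 bp gave 4.28% with a core summit, and summits within 100 bp gave 91.8% in both replicates.

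Leaving out each replicate in turn gave 755 to 761 summits at 646 to 676 genes, 10.4 to 10.5% of summits, signal ratios of 0.935 to 0.978 (core), 1.26 to 1.29 (intergenic) and 1.11 to 1.198 (intronic), 48.8 to 49.0% in introns, 43.1 to 44.0% in intergenic DNA, 29.7% GC in both (-14.9 points), 9.54 to 14.98% with a core summit and 58.8 to 60.2% of start sites with GAGAG. Values were compared with the spread of the replicate lists (1 SD), or counts with a factor of 1.5. By this measure 42 of the main values moved and 48 stayed. Of the values for single motifs and gene lists, 83 moved and 165 stayed. Lists of few genes change by 1 or 2 at a time. Depth is unknown, so no precision is attached to a single signal.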
